A study of Homo sapiens with 5 samples.

Results

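The 8 genes that encode the subunits of condensin I and condensin II were followed in RNA-seq libraries of RPE1 cells, an established wild-type line of human retinal pigment epithelial cells. They were chosen by gene symbol, and all 8 were found among the 26485 genes with deposited counts. There were 5 libraries. In 2 of them the cells had received DMSO, the solvent of the drug, in 2 doxorubicin at 0.2 μM and in 1 doxorubicin at 0.34 μM, and the exposure lasted 18 h in all. The genotype was wild-type in all groups. Doxorubicin is an anthracycline that intercalates into DNA and poisons topoisomerase II.

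Condensins are ring-shaped protein complexes that extrude loops of DNA and fold chromatin into compact rods during mitosis. Both complexes share a pair of ATPases, SMC2 and SMC4, whose heads are joined by a kleisin subunit that carries a pair of HEAT-repeat subunits. In condensin I the kleisin is NCAPH and the HEAT-repeat subunits are NCAPD2 and NCAPG, while in condensin II they are NCAPH2, NCAPD3 and NCAPG2. Condensin II is nuclear throughout the cell cycle and starts compaction in prophase, whereas condensin I reaches chromosomes after the nuclear envelope breaks down. Many mitotic genes carry a promoter element named CHR (cell cycle genes homology region), through which DREAM represses them in quiescence and MuvB complexes with MYBL2 and FOXM1 activate them later in the cycle.

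The promoters of the members were searched for such elements, and the part of these elements in the response to doxorubicin was not tested. The table of RefSeq promoters on GRCh38.p14 covers 250 bases before to 50 bases after each start and had entries for 7 of the 8 members (NCAPH2 was not matched), with 10 starts in all. The search used the CHR (TTTGAA or TTCGAA), a CHR variant (TTTAAA), the CCAAT box bound by NF-Y (CCAAT) and an E2F motif (TTTCCCGC, TTTCGCGC, TTTGCCGC or TTTGGCGC), on both strands. TTCGAA and TTTAAA read the same on both strands, and no match of one motif overlapped a match of another in the members. The CHR was found for 6 of the 7 genes, and the CHR variant for the 7th, NCAPH. Counted per start, the CHR was found at 6 of 10 and either form at 7 of 10. Of all 35116 promoters of this length, counted per start, 16.4% held the CHR, 12.2% the variant and 25.1% either. The CCAAT box was found for 3 of the 7 genes (NCAPD2, NCAPH and NCAPD3), at 3 of 10 starts, and in 34.6% of all promoters. The E2F motif was found for NCAPD3 only, at 1 of 10 starts, and in 3.31% of all promoters. These matches are descriptions of letters and do not show that a factor binds.

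The stretches below run from 170 bases before to 30 bases after the start, 5′ to 3′ on the strand of the gene, and CHR and CCAAT matches on either strand are in capitals (TTCAAA and ATTGG are the reverse strand of TTTGAA and CCAAT). Where RefSeq lists 2 starts (SMC2, SMC4 and NCAPD3), the one with a CHR is shown, and the other held none of the motifs.
SMC2, chr9:104094139-104094338, plus strand: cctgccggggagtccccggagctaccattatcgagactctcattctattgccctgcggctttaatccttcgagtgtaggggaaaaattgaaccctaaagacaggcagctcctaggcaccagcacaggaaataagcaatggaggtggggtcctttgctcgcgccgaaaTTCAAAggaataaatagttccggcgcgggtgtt
SMC4, chr3:160399480-160399679, plus strand: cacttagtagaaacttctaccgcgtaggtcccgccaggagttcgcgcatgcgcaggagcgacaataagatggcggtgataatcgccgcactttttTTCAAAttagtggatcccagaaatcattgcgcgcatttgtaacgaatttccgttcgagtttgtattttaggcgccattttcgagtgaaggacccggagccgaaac
NCAPD2, chr12:6493932-6494131, plus strand: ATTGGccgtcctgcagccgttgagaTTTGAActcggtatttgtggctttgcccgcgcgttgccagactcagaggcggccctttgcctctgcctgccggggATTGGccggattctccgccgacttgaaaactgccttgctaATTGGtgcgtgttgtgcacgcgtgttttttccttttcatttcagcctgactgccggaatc
NCAPG, chr4:17810809-17811008, plus strand: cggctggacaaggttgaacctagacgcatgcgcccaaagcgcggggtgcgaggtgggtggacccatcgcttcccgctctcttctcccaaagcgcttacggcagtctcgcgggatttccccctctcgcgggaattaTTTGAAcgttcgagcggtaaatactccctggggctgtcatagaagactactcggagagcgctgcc
NCAPD3, chr11:134223938-134224137, minus strand: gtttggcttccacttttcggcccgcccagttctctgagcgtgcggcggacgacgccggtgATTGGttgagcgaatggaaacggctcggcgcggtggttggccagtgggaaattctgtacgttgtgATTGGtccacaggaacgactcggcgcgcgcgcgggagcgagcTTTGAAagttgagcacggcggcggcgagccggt

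In NCAPH and NCAPG2 the element lay just after the start, and 30 bases around it are shown (bases 21 to 50 from the start, the start being base 1).
NCAPH, chr2:96335786-96335815, plus strand: cgacgcgcgcgaTTTAAAaccagctcagga
NCAPG2, chr7:158704755-158704784, minus strand: gcgccggcgggtgcgTTTGAAtctggtccg

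The first base of the CHR lay at -3 in SMC2 and in NCAPD3, at -35 in NCAPG, at -75 in SMC4 and at -145 in NCAPD2, counted from the start. In NCAPG2 it lay at 36 and in NCAPH the variant lay at 33. NCAPD2 was the member with the most CCAAT boxes, 4 in the window searched.

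**Figure D1:**
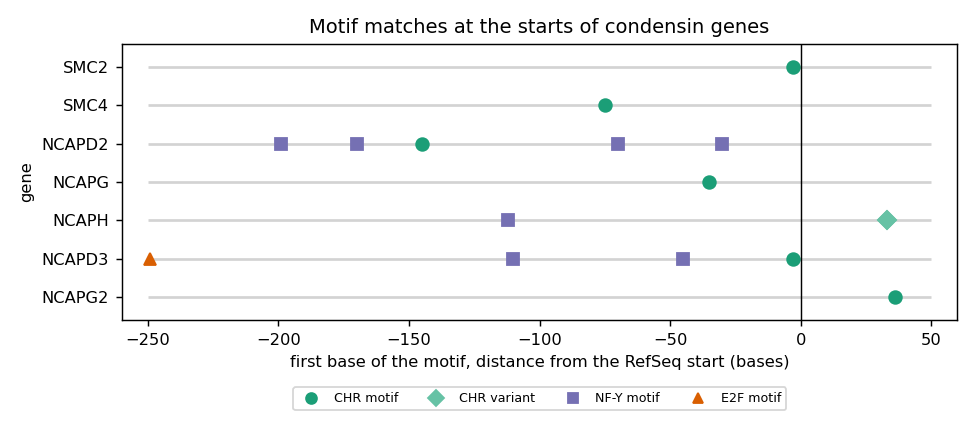
Positions of motif matches (x axis, bases from the RefSeq start, where negative values lie before it) for the 7 condensin genes with a promoter entry (y axis), with 1 start per gene. A CHR or its variant is present in every gene shown, at -3 in SMC2 and NCAPD3 and at 33 to 36 in NCAPH and NCAPG2.

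The total count on genes was between 23773061 and 36725345 per library, and the members together took 34427 and 38745 counts in DMSO, 7787 and 7803 at 0.2 μM and 9322 at 0.34 μM. As a share of all counts this was 0.129% and 0.158% in DMSO and 0.0294%, 0.0328% and 0.0254% after doxorubicin in the same order. Among markers of retinal pigment epithelium, MITF, OTX2, KRT8 and KRT18 were expressed, whereas 4 of 11 (RPE65, RLBP1, TYR and TYRP1) had fewer than 10 counts in every library. BEST1 had 26 and 14 counts in DMSO and between 30 and 142 after doxorubicin. PMEL had 7 and 5 in DMSO and between 22 and 46 after doxorubicin, and LRAT 6 and 25 and between 1 and 4. Mesenchymal markers had, in DMSO, 151942 and 148206 counts (VIM), 503121 and 231823 (FN1), 7513 and 1647 (COL1A1) and 7 and 6 (COL1A2). Of the immune markers, CD3E had 0 counts in every library, whereas PTPRC had 5 and 7 counts in DMSO, 25 and 53 at 0.2 μM and 72 at 0.34 μM (adjusted p = 0.0212 in edgeR, above the threshold used here). KRT8 had 9675 and 8821 counts in DMSO and between 15298 and 23990 after doxorubicin (adjusted p = 0.0133 in edgeR). The part of these markers in the results on condensin was not tested. The DMSO libraries differed from each other by a median of 0.36 (absolute log2 difference over all genes tested).

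To measure the response to doxorubicin, its 3 libraries were compared with the 2 DMSO libraries with the quasi-likelihood test of edgeR over 14187 genes, at a threshold of 0.01 on the p-value after Benjamini-Hochberg adjustment. Doxorubicin lowered the mRNA of 7 of the 8 members past this threshold, where 2.73% of all genes tested were lower at that threshold. The median log2 fold change of the 8 members was -2.21, and that of all genes tested was 0.013. All 3 subunits particular to condensin I fell, as did SMC2, SMC4 and 2 of the 3 subunits particular to condensin II, and NCAPH2 did not pass. In all 8 genes every doxorubicin library lay below every DMSO library, as in 23.4% of all genes tested. In bulk RNA, fewer cells that express a gene and less RNA per cell cannot be told apart. Without DMSO replicate 2 the number past the threshold was 2 (SMC4 and NCAPG), without replicate 1 of 0.2 μM or without the 0.34 μM library it was 4, and it was 6 and 5 without DMSO replicate 1 and replicate 2 of 0.2 μM.

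**Figure D2:**
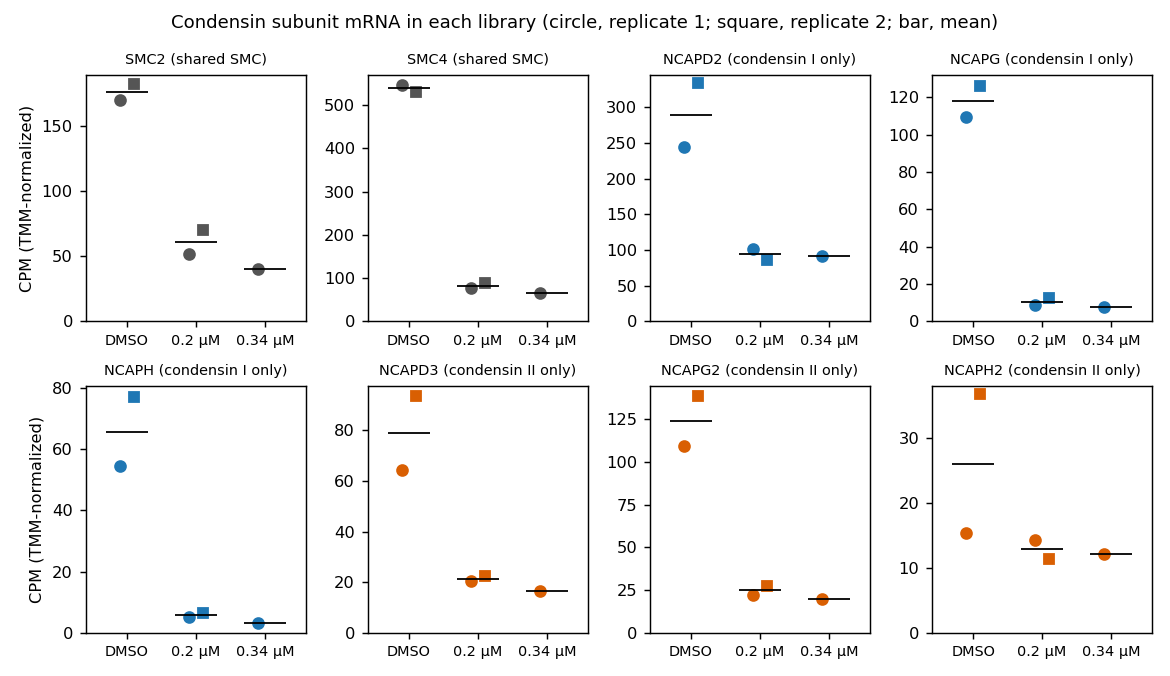
TMM-normalized CPM (y axis, from 0) of each condensin subunit in the 5 libraries, grouped by treatment (x axis), where points are libraries and bars are group means (the lone library at 0.34 μM). The doxorubicin libraries lie far below DMSO in 7 genes, whereas for NCAPH2 DMSO replicate 1 (15.3 CPM) lies close to the highest doxorubicin library (14.3 CPM).

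The kleisin of condensin I, NCAPH (chromosome 2, 96335766 to 96377091 on GRCh38.p14, as for all positions), had the largest fall. It had 1423 and 1963 counts in DMSO, 132 and 159 at 0.2 μM and 118 at 0.34 μM. In CPM (counts per 1e6, TMM-normalized) these were 54.3 and 76.9, then 5.10 and 6.61, and then 3.25. All doxorubicin libraries were thus far below both DMSO libraries, and the lowest was that of the higher dose. The mean fell from 65.6 ± 16.0 CPM (n = 2, SD) in DMSO to 4.99 ± 1.68 CPM (n = 3, SD), a log2 fold change of -3.72 (standard error [SE] 0.32, edgeR adjusted p = 0.0015). From the lowest up, NCAPH ranked 42nd of the 14187 genes by fold change. Omitting 1 library at a time gave log2 fold changes between -3.98 and -3.47, and the call was lost only without DMSO replicate 2.

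NCAPG (chromosome 4, 17810979 to 17844865), a HEAT-repeat subunit of condensin I, changed to nearly the same extent. Its counts were 2868 and 3222 in DMSO, 229 and 296 at 0.2 μM and 286 at 0.34 μM. The mean fell from 118 ± 11.9 CPM (n = 2, SD) in DMSO to 9.68 ± 2.33 CPM (n = 3, SD), with a log2 fold change of -3.61 (SE 0.23, edgeR adjusted p = 0.000694). The DMSO libraries were close together, and the call held with each library left out (log2 fold changes between -3.81 and -3.48).

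The other HEAT-repeat subunit of condensin I, NCAPD2 (chromosome 12, 6494102 to 6531955), had the smallest fold change among the members that passed. It had 6413 and 8518 counts in DMSO, 2641 and 2071 at 0.2 μM and 3312 at 0.34 μM. The mean fell from 289 ± 62.9 CPM (n = 2, SD) in DMSO to 93.2 ± 8.18 CPM (n = 3, SD), a log2 fold change of -1.63 (SE 0.18, edgeR adjusted p = 0.00323). NCAPD2 also lost its call in 4 of the 5 omissions of a library (edgeR adjusted p up to 0.019) and kept it only without DMSO replicate 1. The doxorubicin libraries lay close together at 32.2% of the DMSO level in the fit, against 7.57% for NCAPH and 8.20% for NCAPG. Subunits of condensin I therefore differed widely in how much of their mRNA was left.

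In the ATPase pair, SMC4 (chromosome 3, 160399650 to 160434953) fell more than SMC2 (chromosome 9, 104088263 to 104141419). SMC4 had 14313 and 13524 counts in DMSO, 1973 and 2123 at 0.2 μM and 2383 at 0.34 μM, and fell from 538 ± 11.5 CPM (n = 2, SD) in DMSO to 76.7 ± 11.3 CPM (n = 3, SD). Its log2 fold change was -2.81 (SE 0.17, edgeR adjusted p = 0.000694) and stayed past the threshold with each library left out. SMC2 had 4454 and 4648 counts in DMSO, 1337 and 1683 at 0.2 μM and 1466 at 0.34 μM, and fell from 176 ± 8.59 CPM (n = 2, SD) in DMSO to 54.0 ± 14.9 CPM (n = 3, SD). Its log2 fold change was -1.70 (SE 0.23, edgeR adjusted p = 0.00664), but SMC2 lost its call in 4 of the 5 omissions of a library, with edgeR adjusted p-values up to 0.0322, and kept it only without replicate 2 of 0.2 μM. The groups did not overlap in either gene, and their DMSO libraries agreed more closely than those of any other member (log2 differences of -0.04 for SMC4 and 0.10 for SMC2).

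Among the subunits of condensin II, NCAPG2 (chromosome 7, 158631169 to 158704804), the HEAT-repeat relative of NCAPG, had the largest fall. Its counts were 2866 and 3538 in DMSO, 576 and 657 at 0.2 μM and 719 at 0.34 μM, and the mean fell from 124 ± 20.7 CPM (n = 2, SD) in DMSO to 23.1 ± 3.83 CPM (n = 3, SD). The log2 fold change was -2.42 (SE 0.19, edgeR adjusted p = 0.0012). NCAPD3 (chromosome 11, 134150113 to 134225461), the relative of NCAPD2, had 1689 and 2394 counts in DMSO, 529 and 539 at 0.2 μM and 596 at 0.34 μM. It fell from 79.1 ± 20.7 CPM (n = 2, SD) in DMSO to 19.8 ± 3.05 CPM (n = 3, SD), with a log2 fold change of -2.0 (SE 0.22, edgeR adjusted p = 0.00323). In both genes every doxorubicin library lay far below both DMSO libraries. NCAPD3 lost its call in 4 of the 5 omissions of a library (adjusted p up to 0.0173 in edgeR), and NCAPG2 only without DMSO replicate 2 (0.0123).

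NCAPH2 (chromosome 22, 50508224 to 50524780), the kleisin of condensin II, stood apart in its DMSO libraries. It had 401 and 938 counts in DMSO, 370 and 275 at 0.2 μM and 442 at 0.34 μM, or 15.3 and 36.7 CPM, then 14.3 and 11.4, and then 12.2. DMSO replicate 1 was thus just above the doxorubicin libraries, and DMSO replicate 2 was far above all of the others. The log2 fold change was -1.04 (SE 0.35, edgeR adjusted p = 0.099). Omitting DMSO replicate 2 gave -0.29 and omitting DMSO replicate 1 gave -1.55, and its adjusted p ranged from 0.0153 to 0.406 over all alternatives, which included DESeq2 and limma voom. The log2 difference between the DMSO libraries was 1.26 for this gene, compared with at most 0.54 for any other member. DMSO replicate 2 was the higher of the pair in 7 of the 8 members, the exception being SMC4.

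**Figure D3:**
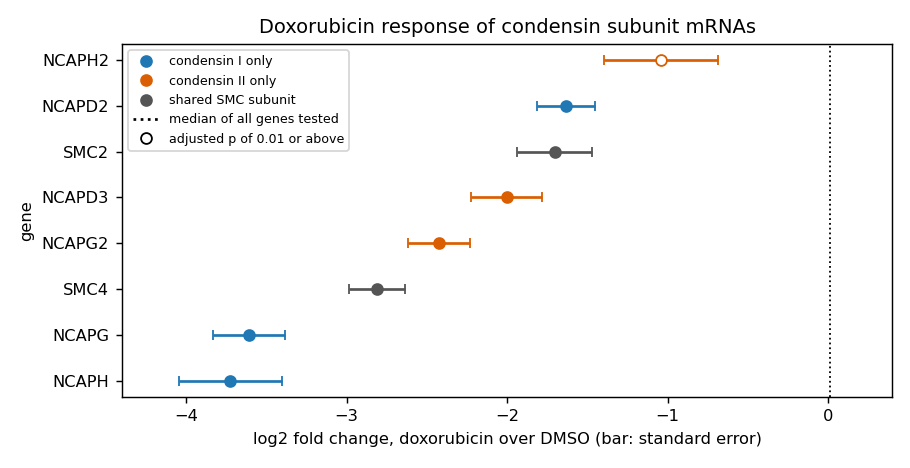
Log2 fold change of each condensin subunit (y axis) after doxorubicin over DMSO (x axis, points with standard errors from edgeR), coloured by complex. Values run from -3.72 for NCAPH to -1.04 for NCAPH2, the open symbol, and all lie below the median of all genes tested (dotted line, 0.013).

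**Figure D4:**
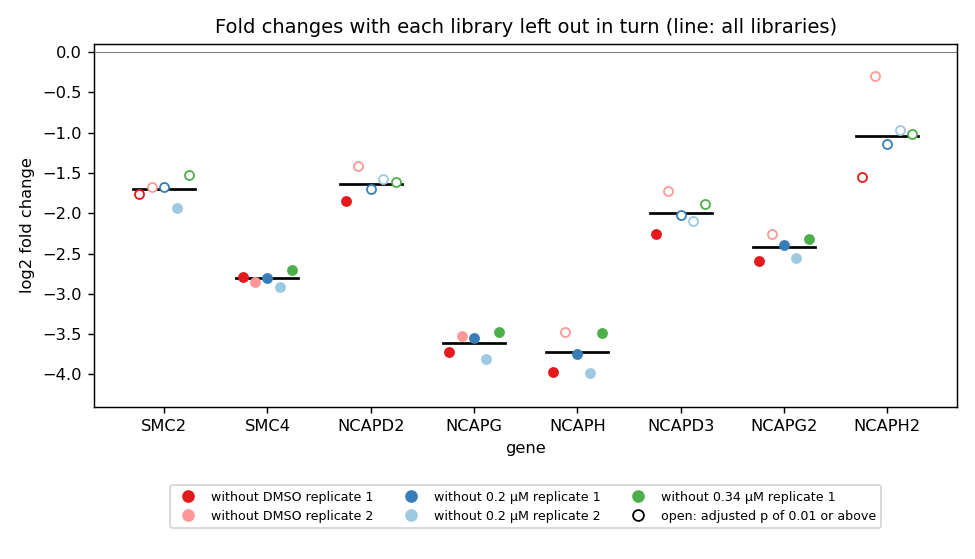
Log2 fold change (y axis) of each condensin subunit (x axis) with all libraries (black line) and after omitting 1 library at a time (coloured points, filled where the adjusted p is under 0.01). All values are negative, SMC4 and NCAPG keep filled points throughout, and NCAPH2 moves the most, from -1.55 to -0.29.

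The annotated spans of several members overlap other genes, and whether the counting used strand is not stated in the sources used here. SCO2 overlaps NCAPH2 and had between 7 and 31 counts in any library. LCORL overlaps NCAPG, with 339 and 374 counts in DMSO and between 161 and 230 after doxorubicin. JAM3 and VPS26B overlap NCAPD3, and had log2 fold changes of -0.17 and -0.25 that did not pass the threshold (edgeR adjusted p = 0.534 and 0.458). SMC4 overlaps MIR15B and MIR16-2, which are listed at 0 in every library, and TRIM59-IFT80. The antisense gene SMC2-AS1 had 1 count in all libraries together, and NCAPG2 and NCAPH overlapped no other annotated gene. The part of these overlaps in the counts of the members was not tested.

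Levels of different genes were compared per kilobase of the canonical GENCODE transcript. In DMSO, SMC4 was the most abundant, at 105 ± 2.25 CPM per kilobase (SD, n = 2), followed by NCAPD2 at 59.9 ± 13.0. NCAPG2, SMC2 and NCAPG came next, at 30.6 ± 5.11, 29.7 ± 1.45 and 25.7 ± 2.59. The DMSO libraries of SMC2 (28.7 and 30.7) lay above those of NCAPG (23.9 and 27.5). The range of NCAPG2 (27.0 and 34.2) overlapped both. The lowest were NCAPH, NCAPD3 and NCAPH2, at 10.9 ± 2.65, 10.7 ± 2.82 and 7.80 ± 4.54, which also lay within each other's spread. After doxorubicin the order was another one. NCAPD2 came first at 19.3 ± 1.69 CPM per kilobase (SD, n = 3), followed by SMC4 at 15 ± 2.21, SMC2 at 9.11 ± 2.52, NCAPG2 at 5.71 ± 0.945 and NCAPH2 at 3.79 ± 0.447. NCAPD3 and NCAPG, at 2.68 ± 0.414 and 2.11 ± 0.507, were close to each other, and NCAPH was the lowest at 0.827 ± 0.279. By transcript length NCAPD2 and SMC4 thus exchanged the first place, and NCAPH2, the lowest in DMSO, was above NCAPH. The order depended on the length used. Per kilobase of coding sequence, SMC2 (49.0 CPM) was above NCAPG (38.7) and NCAPG2 (36.1) in DMSO, and NCAPH (29.5) was above NCAPD3 (17.6) and NCAPH2 (14.3). After doxorubicin NCAPD2 (22.2) and SMC4 (19.9) then overlapped between libraries, as did NCAPH2 (6.96) and NCAPG2 (6.75).

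To ask whether the condensin I and the condensin II form of a subunit moved by unequal amounts, their counts were divided within each library, which removes depth and normalization from the value. The ratio of NCAPH to NCAPH2 was 3.55 and 2.09 in DMSO, 0.357 and 0.578 at 0.2 μM and 0.267 at 0.34 μM. NCAPH had more counts than NCAPH2 in both DMSO libraries and fewer in all doxorubicin libraries, and the mean log2 ratio differed by -2.84 (exact permutation p = 0.1). The ratio of NCAPG to NCAPG2 was 1.00 and 0.911 in DMSO and 0.398, 0.451 and 0.398 after doxorubicin, a difference of -1.20 on the log2 scale (exact permutation p = 0.1). For these pairs the groups did not overlap, and the condensin I form lost the larger part.

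The HEAT-repeat pair NCAPD2 and NCAPD3 went the other way. Its ratio was 3.80 and 3.56 in DMSO, 4.99 and 3.84 at 0.2 μM and 5.56 at 0.34 μM, so that replicate 2 of 0.2 μM was just above the DMSO libraries (log2 difference 0.37, exact permutation p = 0.2). For the ATPases, the ratio of SMC4 to SMC2 was 3.21 and 2.91 in DMSO and 1.48, 1.26 and 1.63 after doxorubicin (log2 difference -1.08, exact permutation p = 0.1). The tests were two-sided, over the 10 arrangements of 3 and 2 libraries, so that 0.1 is the smallest p that the design allows and no pair could pass the threshold. Adjusted over the 4 pairs, the exact permutation p-values were 0.133 for the pairs with p = 0.1 and 0.2 for NCAPD2 and NCAPD3.

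**Figure D5:**
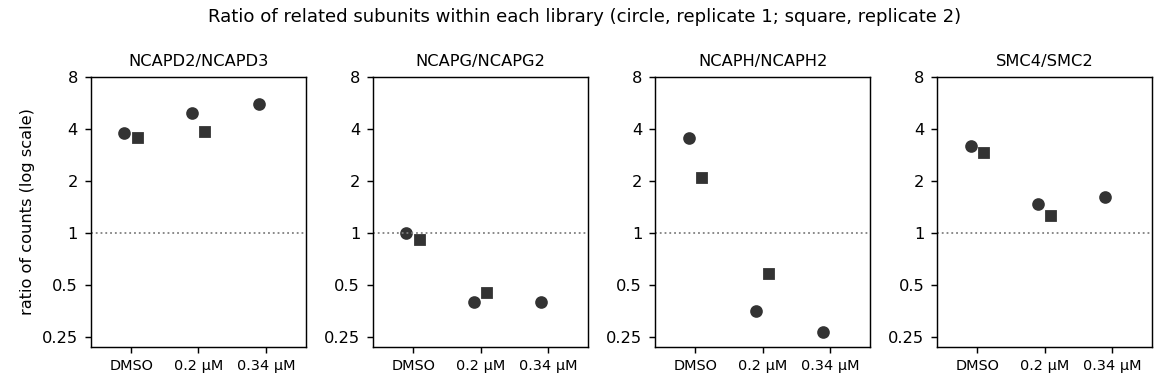
Ratio of counts of related condensin subunits within each library (y axis, log scale), by treatment (x axis), where points are libraries and the dotted line marks equal counts. The ratio of NCAPH to NCAPH2 lies above 1 in DMSO and below 1 after doxorubicin, that of NCAPG to NCAPG2 falls from about equal counts to 0.398 to 0.451, and that of NCAPD2 to NCAPD3 is not lower after doxorubicin.

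Per length, NCAPH made up 66.3% and 53.7% of its pair with NCAPH2 in the DMSO libraries, and 16.5%, 24.2% and 12.9% after doxorubicin. NCAPG made up 46.9% and 44.6% of its pair with NCAPG2 in DMSO and between 26.0% and 28.5% after doxorubicin. NCAPD2 remained the larger part of its pair with NCAPD3 in every library, between 84.5% and 89.5%. Per base of coding sequence in place of the transcript, the mean share of NCAPH was 68.7% in DMSO and 24.2% after doxorubicin, and that of NCAPG was 51.8% and 31.8%. The order of NCAPH and NCAPH2 was thus reversed after doxorubicin under both lengths. That of NCAPG and NCAPG2 in DMSO depended on the length used.

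The doses were compared in a fit of 3 conditions, in which the lone 0.34 μM library takes its spread from the others. No member passed the threshold in edgeR, nor did any of the 14745 genes tested in this fit, so the count does not set the members apart. DESeq2 also called 0 members. The log2 differences of 0.34 μM from 0.2 μM, which rest on the 1 library of the higher dose, lay between -0.85 for NCAPH (standard error 0.37) and -0.04 for NCAPD2 (standard error 0.30), and that of NCAPH2 was -0.08 (standard error 0.52). In 6 of the 8 members the 0.34 μM library lay below both 0.2 μM libraries, as in 28.9% of all genes tested, and NCAPD2 and NCAPH2 were the exceptions. The log2 fold changes against DMSO in this fit, which share the DMSO libraries, were -3.49 at 0.2 μM and -4.34 at 0.34 μM for NCAPH. They were -3.48 and -3.90 for NCAPG, and -1.54 and -2.13 for SMC2. A p-value that misses the threshold does not show that the doses act alike.

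Genes that act on condensin were taken from a list of 13 regulators, whose median log2 fold change was -0.46. None rose past the threshold and 6 fell past it, against 2.73% of all genes tested. Without DMSO replicate 2 the number was 1. Those described here are mitotic kinases and a cyclin. CDK1 and CCNB1, the kinase and the cyclin that phosphorylate condensin at mitotic entry, had log2 fold changes of -2.44 and -3.87. PLK1, which phosphorylates subunits of condensin II, had one of -5.53, AURKB, which promotes loading of condensin I, one of -3.09, and TTK, which phosphorylates NCAPH2, one of -3.60. Their adjusted p-values were between 0.000136 and 0.00402 in edgeR.

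The 4 regulators with the largest adjusted p are given as well. MCPH1, an inhibitor of condensin II, had 513 and 496 counts in DMSO, 387 and 439 at 0.2 μM and 606 at 0.34 μM (log2 fold change -0.23, edgeR adjusted p = 0.415). AKAP8, which recruits condensin to chromatin, had a log2 fold change of -0.09, and the casein kinase 2 subunits CSNK2A2 and CSNK2B had values of 0.0029 and 0.096. Their adjusted p-values were 0.75, 0.993 and 0.789 in edgeR.

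In a list of 11 partners of condensin on mitotic chromosomes, the median log2 fold change was -3.21. Of these 11, 10 fell past the threshold, against 2.73% of all genes tested. TOP2A, which untangles DNA along the axis that condensin builds, fell from 696 ± 1.68 CPM (n = 2, SD) in DMSO to 104 ± 14.8 CPM (n = 3, SD), a log2 fold change of -2.75. KIF4A, a chromokinesin that binds condensin I, had a log2 fold change of -3.80, and MKI67, which coats chromosomes, one of -4.65. BUB1, BIRC5, CDCA8, INCENP, SGO1, KIF22 and HASPIN, which serve centromeres, the chromosomal passenger complex and chromosome movement, lay between -4.47 and -2.32. TOP2B, the isoform that is also expressed in cells that do not divide, was the member that did not pass (log2 fold change -0.73, edgeR adjusted p = 0.0312).

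The other SMC complexes are given for comparison, without a test of the difference from condensin. Of 8 genes of the SMC5/6 complex, which acts in DNA repair, 0 fell past the threshold in edgeR, against 2.73% of all genes tested. None rose past it. In limma voom 0 passed, and 4 passed in DESeq2. The median log2 fold change was -0.57. SMC5 had a log2 fold change of -0.44, NSMCE1 one of 0.49, NSMCE2 one of -0.37 and NSMCE3 one of 0.25, with adjusted p-values of 0.182, 0.0974, 0.345 and 0.334 in edgeR. The other 4, named after their values were seen, had lower estimates that lay closer to the threshold. NSMCE4A had a log2 fold change of -1.43, SLF1 one of -1.49, SMC6 one of -0.98 and SLF2 one of -0.69, with adjusted p-values of 0.01005, 0.0127, 0.022 and 0.0475 in edgeR. Of 14 genes of cohesin and its regulators, whose median was -1.06, 6 fell past the threshold, against 2.73% of all genes tested. This number was between 0 and 1 when a doxorubicin library was left out. For the SMC5/6 and cohesin lists the medians lay closer to that of all genes than the median of condensin did.

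Finally, the genes with profiles most like those of the members were taken by the distance between mean-centred log2 CPM values over the 5 libraries, among 9647 other genes whose mean log2 CPM reached 3. SMC4 was closest to TOP2A (distance 0.101) and PSRC1 (0.150), NCAPG to AURKA (0.169) and KIF2C (0.228), and NCAPH to WDR76 (0.210) and ESPL1 (0.239). NCAPD2 was closest to TUBB4B (0.0828) and WHSC1 (0.149), and SMC2 to RANBP1 (0.199) and CENPN (0.268). In condensin II, NCAPG2 was closest to BRCA1 (0.127) and BARD1 (0.184), NCAPD3 to POLE (0.128) and DCLRE1B (0.165), and NCAPH2 to CHTF18 (0.261) and H1FX (0.273). No gene was among the nearest of more than 1 member.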

How the data were processed

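RNA-seq counts of 5 libraries were analysed. The authors aligned poly-A RNA reads to hg38 using STAR, assigned them to genes using Rsubread (featureCounts) and deposited the raw counts. Tool versions and the treatment of strand and of multimapping reads are not given in the sources. The treatment description gives doses that differ from those of the sample titles, which are used here. A deposited table of the authors' own comparison (mean, fold change, standard error, statistic and p-values per gene) was not used.

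Counts were tested with edgeR 4.0.16 in R 4.3.3 (quasi-likelihood test, TMM, filterByExpr with count at least 10 and total at least 15, Benjamini-Hochberg adjustment over all genes), with 3 doxorubicin libraries pooled as in the study. DESeq2 1.42.0, limma 3.58.1 (voom), other normalization, no filter, single doses, a replicate block and leaving out each library were alternatives. Standard errors were obtained as |log2 fold change|/√F. A prior count of 2 was added for log2 CPM. TMM factors ranged from 0.975 to 1.04. Neither replicate pair was a copy (chi-square per degree of freedom 117 in DMSO and 75.3 at 0.2 μM). The study calls the libraries biological replicates, and p-values measure the spread between them. The pipeline was tested on simulated data, where it recovered 79.2% of 4-fold and 23.4% of 2-fold changes. Changes near 2-fold were thus mostly missed.

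Positions are those of RefSeq on GRCh38.p14. Transcript and coding lengths are those of canonical transcripts of GENCODE v44 lifted to GRCh37, used for lengths only. The members, lists, motifs and tests were chosen with earlier results of these data known. The genes named are the 8 members, list members past the threshold, up to 4 of each list with the largest adjusted p, and the 2 genes nearest to each member. Cohesin is given by counts and median only. Some genes of the lists are not reported here. Overlapping genes were named for their position.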

Additional observations from a re-analysis of the deposited data

How the results depend on the processing

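All 8 condensin members kept a negative log2 fold change in the 13 alternatives. Their calls held with DESeq2, limma voom, DESeq2 size factors and no filter, whereas the number past the threshold was 4 for 0.2 μM against DMSO and 3 for 0.34 μM in a fit of 3 conditions, and between 2 and 6 on omitting 1 library at a time. The median of the members was -2.46 for 0.34 μM and between -2.43 and -1.99 with a library left out. For all genes, 571 in the main fit, the count was 2026 with DESeq2, 1020 without the filter, 185 for 0.2 μM, 98 for 0.34 μM and between 49 and 215 with a library left out. Of the SMC5/6 genes, 4 passed with DESeq2, 3 without the filter and between 0 and 1 with a library left out. For cohesin the count was 0 at either dose and between 0 and 2 with a library left out, and for the regulators it was 2 at 0.34 μM and between 1 and 5 with a library left out. Titles share replicate numbers but state no pairing, so the fit with a replicate block is given only here. In the DMSO and 0.2 μM libraries, 7 members, 1249 genes in all, 7 cohesin and 2 SMC5/6 genes passed with the replicate block, against 4 members, 178 genes in all, 0 cohesin and 0 SMC5/6 genes without it, and deviations within the numbers correlated with r = 0.528 across genes. The causes were not tested. The ratios of related subunits kept their direction under every alternative. Counts of the members were at least 118 in every library, and the number of libraries (2 of DMSO and 3 of doxorubicin) also limits the precision.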
